A study of Mus musculus with 2 samples.

Results

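The genes described here are 10 members of the transforming growth factor β (TGF-β) and activin pathway, taken by name from the table of 20198 genes that was measured in single cells of the mouse cornea. They comprise the ligands *Tgfb1*, *Tgfb2* and *Tgfb3*, the activin subunit *Inhba*, the receptors *Tgfbr1*, *Tgfbr2* and *Tgfbr3*, the inhibitors *Smad7* and *Fst*, and *Tgfbi*, a matrix gene named for its induction by TGF-β. All 10 were present in the table and are described across its 17 cell clusters and both of its libraries. The unwounded (UW) library pooled cells from the corneas of 4 male mice aged 6 to 8 weeks. The wounded (W) library pooled cells from 4 such mice in which the central corneal epithelium, marked with a 2.5 mm trephine, had been scraped off 24 h before. The wounded mice had also received pentobarbital, a topical anaesthetic and ofloxacin on the wound, and no mock procedure is described for the unwounded mice. The strain is not given in the sources used here.

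TGF-β is secreted in a latent complex and, once released, brings together a type II receptor (*Tgfbr2*) and a type I receptor (*Tgfbr1*), which phosphorylates Smad2 and Smad3. *Tgfbr3* encodes betaglycan, a co-receptor without a kinase that presents the ligand, above all the product of *Tgfb2*, to the signalling pair. Activin A, a dimer of *Inhba* products, acts through its own receptors on the same Smads. Follistatin, the product of *Fst*, binds and neutralises activin, while Smad7 blocks signalling inside the cell and is itself induced by the pathway. In the cornea TGF-β is known for halting the division of epithelial cells and for turning stromal keratocytes into fibroblasts and myofibroblasts. *Tgfbi* encodes a secreted adhesion protein of the corneal matrix whose mutations cause corneal dystrophies.

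Unique molecular identifiers (UMIs) were counted per gene and cell. The UW library held 16450 cells and 367166822 UMIs, with a median of 22014 UMIs per cell, and the W library held 12417 cells and 289586482 UMIs, with a median of 20290. There were 52 cell barcodes present in both libraries. The deposited clusters carry numbers only, from 0 to 17 with number 12 unused. Clusters 1 to 9 and 11 were epithelial by *Krt12*, *Krt14*, *Krt5*, *Pax6*, *Cdh1* and *Epcam* or, in cluster 7, by its leading genes *Lce3a*, *Lce3f* and *Lce3b*, since its score for these markers was below 0. These 10 clusters, called the epithelium here, held 13501 UW and 8507 W cells. Cluster 3 (leading genes *Krt18*, *Ppbp*, *Dynap*) was basal-like, cluster 9 (*Wfdc18*, *Dlk2*, *Fndc1*) limbal-like, and cluster 5 (*Serpinb3a*, *Sptssb*, *Krt4*) conjunctival-like. Cluster 8 (*Top2a*, *Nusap1*, *Mki67*) was mitotic-like and cluster 11 (*Ung*, *Hells*, *Uhrf1*) S phase-like. Clusters 1 (*Pygl*, *Sphkap*, *Gm20383*) and 4 (*Cldn17*, *Dsg1a*, *Muc15*) were suprabasal-like, and clusters 2 (*Ly6g6c*, *Spink5*, *Ttc36*), 6 (*Upk3b*, *Krt78*, *Psca*) and 7 superficial-like. Cluster 0 (*Kera*, *Tmem132c*, *Fibin*) was stromal cell-like. Cluster 10 (*Penk*, *Myoc*, *Wisp2*) was left without a name, because it held the stromal markers at a summed 59031 counts per 1000000 (CPM), against 57547 in cluster 0, but had a higher score for corneal endothelial markers. Clusters 13 to 17 came almost wholly from the W library. Clusters 14 (*H2-Aa*, *H2-Eb1*, *H2-Ab1*) and 15 (*Pf4*, *Lyz2*, *Ccl12*) were monocyte-like and cluster 16 (*Cd3g*, *Ctla2a*, *Gzma*) T cell-like. Cluster 13 (*Ccl3*, *Gm5483*, *Stfa2l1*) held all 5 neutrophil markers, with the highest sum of any cluster, and was left unnamed because its median depth was low, at 2510 UMIs per cell.

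A level is the gene's UMIs summed over the cells of a cluster in a library, per 1000000 UMIs of that sum, with an exact Poisson 95% interval. A log2 ratio is that of the level in W over the level in UW, with an exact conditional 95% interval. With 1 library per condition these intervals cover counting error only, not the spread between mice or libraries, and no test was made between UW and W. A gene was counted as past the fold where it differed at least 2-fold and had at least 20 UMIs in the 2 sums together. Levels were compared within a gene, not between genes.

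In the epithelial clusters the 2 receptors *Tgfbr1* and *Tgfbr3* were lower after the wound in each of the 10 clusters, while *Tgfbr2*, *Smad7* and *Fst* were higher in the 9 clusters other than the limbal-like cluster 9. There *Smad7* was lower, and the ratios of *Tgfbr2* and *Fst* were so near 0 that their sign turned under other scalings of the libraries. In cluster 0 the levels of 8 members differed less than 2-fold between the libraries, *Fst* was higher, at 2.10 CPM in W, a level within the range of free epithelial RNA there, and *Inhba* had too few UMIs. In cluster 10 no member was past the fold. *Inhba* had 51 UMIs in the UW library and 955 in the W library, where 66.6% of them were in clusters 13 to 16. Over the summed epithelium 7 members were at least 2-fold higher in W, where 21.8% of the 16439 genes were, and 2 were at least 2-fold lower, where 8.77% were. The 2 lower ones were near the threshold, and 1 was past it under a stricter filter on cells (at least 1000 genes, at most 5% mitochondrial UMIs) and none without mitochondrial and ribosomal protein genes in the total. Scaling by TMM factors shifted every epithelial ratio by −0.22. It left 5 members higher, *Tgfb1* and *Smad7* then being at 0.91 and 0.85, and lowered the share of higher genes among all those past the fold from 71.3% to 57.9%. When each epithelial cluster weighed the same, 2 members were at least 2-fold higher, *Tgfb3* and *Inhba*, and the ratio of *Tgfb2* turned to −0.28. *Tgfb3* had only 48 UMIs in the UW and 111 in the W epithelium, and *Inhba* 40 and 272. Only 2 of the 10 clusters for *Tgfb3* and 4 for *Inhba* had enough UMIs for a ratio. In cluster 0, 1 member was higher against 7.34% of 14245 genes and none was lower against 9.67%. In cluster 10 none was higher against 4.97% of 12441 genes and none was lower against 6.63%. Of the 7 members with at least 20 UMIs in every epithelial cluster, 2 were lower in each of the 10 clusters and none was higher in each, against 17.9% and 17.8% of 10062 genes. The summed epithelium also moves with the make-up of the cells caught. Cluster 9 held 521 UW and 956 W cells and cluster 1 held 2461 and 591, so values are given by cluster where the counts allow. Marker levels also differed between the libraries within clusters, so ratios by cluster can still hold such shifts. The basal markers summed to 1000 CPM in UW and 4741 in W in cluster 7, and to 4073 and 11180 in cluster 6. They differed little in cluster 4, at 6474 and 6613, and were lower in W in cluster 5 alone, at 23449.4 and 21475.5. The part of these differences in the ratios by cluster was not tested.

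**Figure D1:**
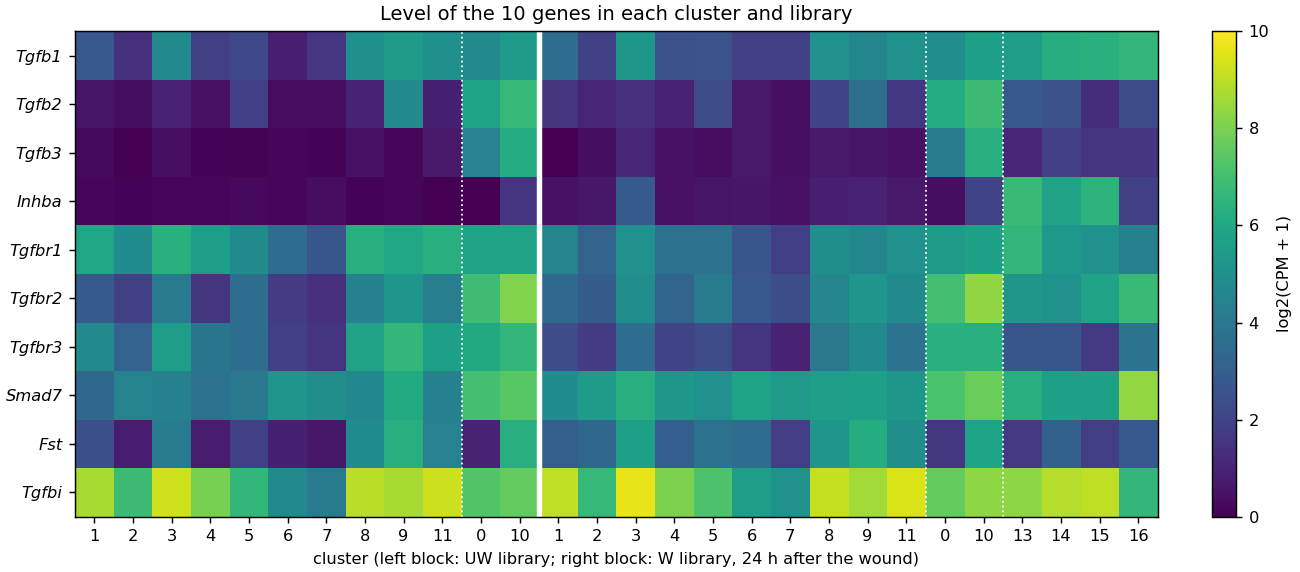
Level of each of the 10 genes, as the colour of log2(CPM + 1), in every cluster with at least 50 cells of a library (columns), with UW on the left and W on the right. *Tgfb2* and *Tgfb3* stand out in clusters 0 and 10 in both libraries, and *Inhba* in clusters 13, 14 and 15 of W, at 108, 53.2 and 87.8 CPM.

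The upstream DNA of *Tgfb2*, *Inhba* and *Tgfbr1* is shown because contrasts reported here turn on these genes, on *Tgfb2* between the stromal and the epithelial clusters and on *Inhba* and *Tgfbr1* between the libraries. Each sequence is the 250 bases before the start of the gene in RefSeq on GRCm38.p6, written 5′ to 3′ on the strand of the gene. Both strands were searched for the AP-1 site TGACTCA, the cyclic AMP response element TGACGTCA, the SMAD-binding element CAGACA, the GC box GGGCGG and the TATA box TATAAA, and capitals mark the matches. These letters were found in 4.46%, 1.55%, 17.1%, 32.7% and 12.4%, in that order, of 32851 promoter windows of this length. The window of *Tgfb2* (chr1:186705990-186706239, minus strand) held a SMAD-binding element 204 bases and a TATA box 31 bases before the start. That of *Inhba* (chr13:16011601-16011850, plus strand) held a TATA box 91 bases before the start and was 43.2% G and C. That of *Tgfbr1* (chr4:47352972-47353221, plus strand) held GC boxes 133 and 95 bases before the start and was 74.8% G and C. A match is a description of the letters and not a site of binding.
Tgfb2: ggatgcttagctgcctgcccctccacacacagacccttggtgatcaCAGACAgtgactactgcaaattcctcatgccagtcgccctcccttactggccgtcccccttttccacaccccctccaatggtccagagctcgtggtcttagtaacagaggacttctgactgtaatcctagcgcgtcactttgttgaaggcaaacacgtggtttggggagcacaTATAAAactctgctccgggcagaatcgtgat
Inhba: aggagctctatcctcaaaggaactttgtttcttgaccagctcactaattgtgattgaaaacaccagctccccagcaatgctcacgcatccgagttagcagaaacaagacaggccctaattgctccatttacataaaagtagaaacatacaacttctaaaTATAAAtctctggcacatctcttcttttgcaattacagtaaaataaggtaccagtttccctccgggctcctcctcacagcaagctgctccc
Tgfbr1: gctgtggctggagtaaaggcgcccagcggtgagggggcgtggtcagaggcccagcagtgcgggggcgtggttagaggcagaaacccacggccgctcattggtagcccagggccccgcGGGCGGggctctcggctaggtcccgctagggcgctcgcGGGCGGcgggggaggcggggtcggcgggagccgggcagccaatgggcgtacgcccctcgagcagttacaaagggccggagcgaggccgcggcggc

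*Tgfb2* lies on the minus strand at chr1:186622792-186705989 (GRCm38, GENCODE M21, as are all gene positions given here). Its RNA was most abundant in cluster 10, at 99.3 CPM (91.3 to 108) in UW against 113 (106 to 121) in W, and next in the stromal cell-like cluster 0, at 54.7 (52.1 to 57.5) and 69.5 (66.7 to 72.5). In both libraries these intervals were apart from each other and from every other cluster with at least 50 cells. Among the epithelial clusters the limbal-like cluster 9 held the highest level, at 26.5 CPM (23.0 to 30.4) in UW against 12 (10.7 to 13.4) in W, while the median epithelial cluster was at 0.655 and 1.71. *Tgfb2* was at least 2-fold higher in W in 6 epithelial clusters and lower in cluster 9 alone, by a log2 ratio of −1.15 (−1.41 to −0.88). The 6 higher clusters had low levels, from 0.253 to 1.02 CPM in UW and from 0.604 to 3.0 in W. The interval of one of them, cluster 6, reached below 0, and its ratio was −0.32 after thinning. Free RNA bears on such levels. In cluster 6 *Tgfb2* was at 0.462% of its level in cluster 0 in UW and at 0.869% in W, within the ranges of the stromal markers there, 0.295% to 0.473% and 0.625% to 1.22%, so its values are read as background. Clusters 2 and 4 were little above those markers, with *Tgfb2* at 1.51% and 1.46% in W where the highest marker was at 1.21% and 1.23%. Cluster 10, where *Tgfb2* was higher than in cluster 0, was not taken as a source of free RNA. In the summed epithelium the markers were at 0.370% in UW and 0.73% in W, and *Tgfb2*, to which cluster 9 gave 49.8% and 39.5% of the UMIs, at 2.23% and 4.54%. The markers themselves summed to 77647 CPM in cluster 0 of UW and 39928 in W. After each cell was thinned to 5000 UMIs, 36.4% of UW and 41.9% of W cells of cluster 10 held a *Tgfb2* UMI, against 0.769% and 1.22% of epithelial cells. Without thinning these shares were 53.6%, 66.5%, 2.40% and 6.37%.

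*Tgfb3* (chr12:86056745-86079041, minus strand) was also highest in cluster 10 and next in cluster 0. Cluster 10 held 69.5 CPM (62.8 to 76.7) in UW against 78.6 (72.7 to 84.9) in W, and cluster 0 held 20.7 (19.0 to 22.4) and 16.9 (15.5 to 18.4). The ratio of cluster 0 was −0.29 on the log2 scale (−0.46 to −0.12). No epithelial cluster exceeded 0.615 CPM in UW or 1.06 in W, and only 2 of the 10 had enough UMIs for a ratio. The level in the epithelium was 0.70% of that in cluster 0 in UW and 2.75% in W, beside 0.370% and 0.73% for the stromal markers. Cluster 10 was not taken as the source, though *Tgfb3* was higher there and the stromal markers summed alike, to 59031 CPM against 57547 in cluster 0. The comparison with cluster 0 therefore does not show that epithelial *Tgfb3* exceeded free RNA. *Tgfb3* overlaps *Ttll5*, which lies on the opposite strand and is also in the table.

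*Tgfb1* (chr7:25687002-25705077, plus strand), the isoform best known from immune cells and platelets, was found in every class of cells. In UW its level was 40.7 CPM (36.3 to 45.5) in the limbal-like cluster 9 and 41.0 in cluster 10, whose intervals overlapped, and between 0.781 and 31.8 in the other epithelial clusters. In W the T cell-like cluster 16 held 98.2 CPM, the monocyte-like clusters 15 and 14 held 80.1 and 74.9, with overlapping intervals, and cluster 13 held 46.9. The basal-like cluster 3 was at 26.3 CPM (24.5 to 28.1) in UW against 38.4 (35.8 to 41.0) in W, a log2 ratio of 0.55. Cluster 9 went the other way, to 22.8 (20.9 to 24.7) in W, a log2 ratio of −0.84 (−1.04 to −0.63). Only cluster 6 was past 2-fold, at 0.781 CPM in UW and 2.75 in W. The ratio of 1.13 for the summed epithelium thus exceeded the median ratio of its clusters, 0.50. When each epithelial cluster weighed the same, the ratio was 0.09.

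The mix of the 3 ligands was set out by cell class. Of the UMIs of *Tgfb1*, *Tgfb2* and *Tgfb3* together, *Tgfb2* made up 53.9% in cluster 0 of UW and 60.2% in W, and 47.3% and 46.9% in cluster 10. *Tgfb1* made up 85.7% in the UW epithelium and 83.1% in the W epithelium. Epithelial clusters 5 and 9 held more *Tgfb2* than that sum shows, at 42.3% and 39.4% in UW and 44.1% and 34.0% in W. *Tgfb1* made up between 86.9% and 96.0% in clusters 13 to 16 of W. *Tgfb3* made up 33.1% and 32.5% in cluster 10. These shares describe the mix of UMIs, which are counted near the 3′ end and not scaled by length, and were chosen after their values were seen.

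*Inhba* lies at chr13:16011851-16031621 on the plus strand. The UW library held 51 of its UMIs, 78.4% of them in the epithelium and 21.6% in cluster 10, and the W library held 955. Clusters 13, 14, 15 and 16 held 66.6% (63.5 to 69.6) of the W UMIs while holding 12.3% of the cells and 3.2% of all UMIs, and the epithelium held 28.5%. In the summed W epithelium *Inhba* was at 1.05% of its level in cluster 13, inside the 0.0845% to 2.71% range of the neutrophil markers. The level in W was 108 CPM (93.9 to 125) in cluster 13 and 87.8 (77.0 to 99.7) in the monocyte-like cluster 15, whose intervals overlapped, and 53.2 (46.0 to 61.2) in the monocyte-like cluster 14. The T cell-like cluster 16 held 3 UMIs. The UW library had 0 to 7 cells in each of clusters 13 to 16, so no ratio could be formed there.

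In W *Inhba* UMIs were found in 81 of 710 cells of cluster 13 (11.4%), 62 of 251 of cluster 15 (24.7%) and 38 of 354 of cluster 14 (10.7%). At 2000 UMIs per cell these shares were 11%, 12% and 6.76%, against 0.200% of epithelial cells. A few cells carried much of the RNA, for the 10 highest cells held 62.8% of the *Inhba* UMIs in cluster 14, 47.1% in cluster 15 and 35.2% in cluster 13. In cluster 14 the cells with *Inhba* also held more of the stromal markers, 3140 CPM summed against 613 in the cells without, with 6 of 6 markers higher. They held more of the T cell markers too, 56.6 CPM against 2.22 with 6 of 6 higher, and more of the monocyte markers, 13768 against 6731 with 4 of 6 higher. In cluster 13 the cells with *Inhba* had a lower summed level of the neutrophil markers, 17746 CPM against 37115, with 1 of 5 higher. In cluster 15 the summed level was higher, 762 against 207, with 3 of 5 higher. The part of these markers' sources in the *Inhba* values was not tested.

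Among the epithelial clusters *Inhba* stood out in the basal-like cluster 3. Its level was 0.122 CPM in UW, from 4 UMIs in 1789 cells, and 6.20 (5.22 to 7.32) in W, from 140 UMIs in 885 cells, a log2 ratio of 5.67 (4.28 to 7.56). The other epithelial clusters held at most 0.884 CPM in W. At 5000 UMIs per cell 0 of 1708 UW cells and 17 of 865 W cells of cluster 3 (1.97%) held an *Inhba* UMI, and without thinning 4 of 1789 (0.224%) and 55 of 885 (6.21%). The neutrophil markers were found in cluster 3 at a median of 0.45% (range 0.163% to 1.88%) of their level in cluster 13 and *Inhba* at 5.72%. Monocyte markers were at a median of 0.26% of their level in cluster 14 and *Inhba* at 11.7%. The cluster 3 cells with *Inhba* held the neutrophil markers at 281 CPM against 582 in those without, the monocyte markers at 26.3 against 31.0, and the stromal markers at 275 against 367. Of these markers 0 of 5, 1 of 6 and 1 of 6 were higher in the cells with *Inhba*. The T cell markers were at 8.26 against 4.41, with 1 of 6 higher and 5 without a UMI in the cells with *Inhba*. The cells with *Inhba* were deeper, with a median of 31692 UMIs against 23563, and the 10 highest held 53.6% of the 140 UMIs. Their *Fst* level was 153 CPM against 39.3 and their *Smad7* level 128 against 70.5, while *Tgfbr1* was at 21.7 against 33.6. *Tgfbi* was lower too, at 520 against 824, and *Tgfbr2* and *Tgfb1* differed little, at 31.5 against 28.9 and 45.9 against 37.7. *Tgfbr1* and *Tgfbi* were also lower in the cells with *Inhba* of clusters 13, 14 and 15. The 8 genes with the largest ratios between these cells and the others of the cluster were, in order, *Sprr2f*, *Igfbp3*, *Ppbp*, *Cxcl3*, *Dynap*, *Mmp13*, *Cxcl1* and *Hmga2*, the first at 120 CPM against 6.30 and the last at 154 against 32.5. These genes were chosen after their values were seen. In cluster 0 *Inhba* had 0 UMIs of 28443236 in UW and 9 UMIs in W, and in cluster 10 it had 11 and 26.

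**Figure D2:**
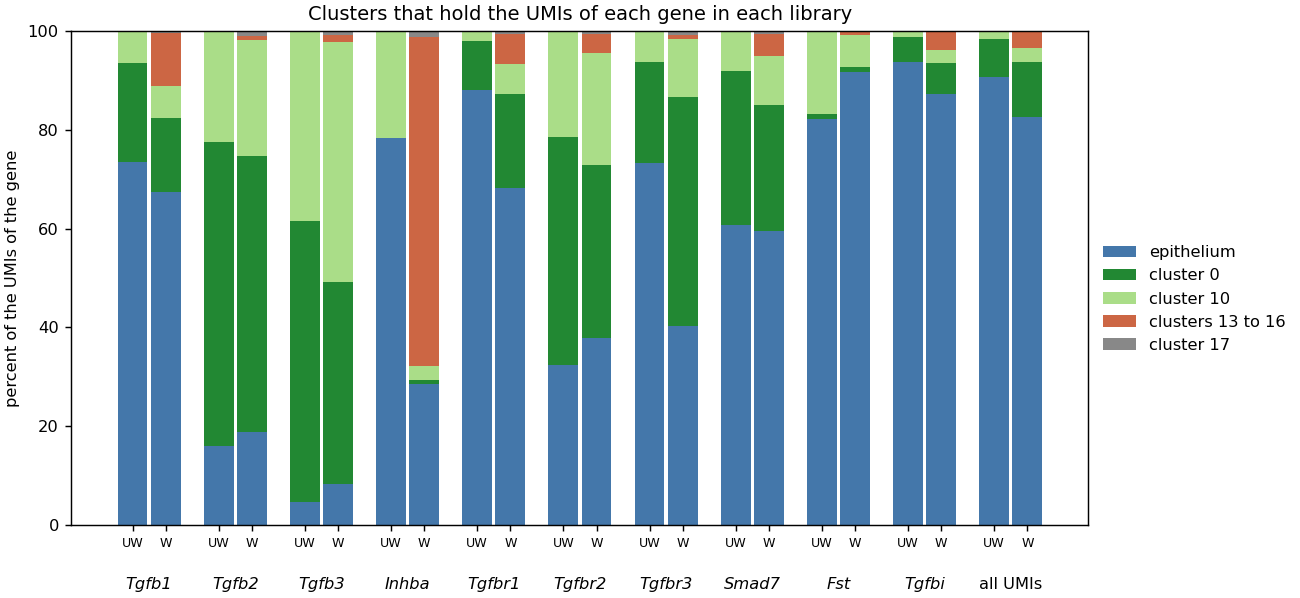
Share of each gene's UMIs (percent) held by the epithelium, cluster 0, cluster 10, clusters 13 to 16 and cluster 17 in the UW and W libraries, with the same for all UMIs at the right. *Inhba* in W is the gene with the most from clusters 13 to 16 (66.6%), *Tgfb2* and *Tgfb3* come mostly from clusters 0 and 10, and the epithelial share of *Tgfbr3* is 73.3% in UW and 40.3% in W.

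*Fst*, the antagonist of activin, lies on the minus strand at chr13:114452290-114458951 and overlaps the antisense gene *Gm47040*, which is also in the table. In UW it was concentrated in cluster 10, at 78.3 CPM (71.2 to 85.9), and in the limbal-like cluster 9, at 75.2 (69.2 to 81.7), whose intervals overlapped. The suprabasal-like and superficial-like clusters were between 0.579 and 4.42. In W cluster 9 was at 72.5 (69.2 to 75.9), a log2 ratio of −0.05 (−0.19 to 0.08), and cluster 10 was at 55.1 (50.1 to 60.3), a log2 ratio of −0.51 that turned to 0.57 under the stricter filter on cells. The basal-like cluster 3 went from 16 CPM (14.6 to 17.4) in UW to 49.0 (46.1 to 52.0) in W. The largest ratio was in the superficial-like cluster 6, with 0.827 CPM in UW and 10.9 in W, a 13.2-fold difference, and cluster 2 was at 0.758 and 9.04. In cluster 6 the basal markers summed to 4073 CPM in UW and 11180 in W, and the superficial markers to 49811 and 26234. The part of these differences in the *Fst* ratio was not tested. Thus 6 epithelial clusters were at least 2-fold higher, and the level in W still spanned from 2.51 to 72.5 CPM across the epithelium. At 5000 UMIs per cell 2.86% of UW and 7.41% of W epithelial cells held a UMI, and 22.4% and 20.2% of cluster 9, against 7.21%, 19.7%, 37.4% and 44.7% without thinning. In cluster 0 the level was 0.949 CPM in UW and 2.10 in W, a log2 ratio of 1.14 (0.48 to 1.84). That equals 14.5% and 7.8% of the epithelial level, where epithelial markers were found in cluster 0 at 7.1% in both libraries, so the W value lies at the level of free RNA.

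*Tgfbr1*, the type I receptor, lies on the plus strand at chr4:47353222-47414931. In UW the basal-like cluster 3 held 80.6 CPM (77.6 to 83.8) and the mitotic-like and S phase-like clusters 8 and 11 held 78.5 and 76.8. In W the same clusters held 32.6 (30.2 to 35), 30.9 and 32.0. All 10 epithelial clusters were lower in W with an interval below 0, from −0.99 in cluster 6 to −1.91 in the suprabasal-like cluster 4, with a median of −1.33, and 9 were past 2-fold. Cluster 4 was at 46.3 CPM in UW and 12.3 in W. The share of epithelial cells with a UMI at 5000 UMIs per cell was 18.9% in UW and 9.11% in W, and 53.5% and 35.9% without thinning. Outside the epithelium the receptor differed less. Cluster 0 was at 53.4 CPM (50.8 to 56.2) in UW against 41.1 (38.9 to 43.4) in W, a log2 ratio of −0.38, and cluster 10 at 53.6 and 52.4, a log2 ratio of −0.03 (−0.25 to 0.18), whose sign turned under TMM scaling. Cluster 13 had the highest level in W, at 94.8 CPM.

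*Tgfbr3*, the co-receptor, lies on the minus strand at chr5:107106570-107289629. It had its highest epithelial level in the limbal-like cluster 9, at 97.8 CPM (90.9 to 105) in UW, whose interval overlapped that of cluster 10, at 98.6 (90.6 to 107). In W cluster 9 held 26.6 CPM (24.6 to 28.7) and cluster 10 held 78.5 (72.6 to 84.8). The ratio was below 0 in all 10 epithelial clusters, with a median of −1.87, 8 were past 2-fold, and the interval of cluster 6 reached above 0. The lowest ratio was that of the suprabasal-like cluster 1, at −2.65 (−3.05 to −2.27), from 25.8 CPM to 4.10. Cluster 0 differed in the opposite direction, with 65.7 CPM (62.7 to 68.7) in UW against 80.1 (77.1 to 83.3) in W. The order of clusters in W was therefore headed by clusters 0 and 10, which overlapped, before cluster 9. The epithelium held 73.3% of the UMIs of *Tgfbr3* in UW and 40.3% in W, and cluster 0 held 20.5% and 46.5%. The stromal share of all UMIs was 7.75% and 11.2%.

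*Tgfbr2*, the type II receptor that binds the ligand, lies on the minus strand at chr9:116084293-116175360. It was highest in cluster 10, at 274 CPM (261 to 288) in UW against 321 (309 to 334) in W, and next in cluster 0, at 119 (115 to 124) and 127 (123 to 131). In W the interval of cluster 0 overlapped that of the T cell-like cluster 16, at 110 (90.5 to 132). All epithelial clusters lay below clusters 10 and 0, from 1.63 to 37.3 CPM in UW and from 4.27 to 36.7 in W, with cluster 9 highest in both. The ratio of cluster 9 was −0.02 (−0.22 to 0.17), and the other 9 clusters had ratios up to 2.18, 4 of them past 2-fold. The highest was the suprabasal-like cluster 4, at 1.92 CPM (1.53 to 2.38) in UW against 8.69 (7.52 to 10.0) in W. In the epithelium 3.81% of UW and 8.70% of W cells held a UMI at 5000 UMIs per cell, and 14.4% and 33.6% without thinning. The epithelial level equalled 5.98% of that of cluster 0 in UW and 14.6% in W, beside 0.370% and 0.73% for the stromal markers.

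The 2 signalling receptors thus differed in opposite directions in the epithelium. Of the UMIs of *Tgfbr1* and *Tgfbr2* together, *Tgfbr1* made up 84.9% in the UW epithelium (13432 of 15812) and 51.8% in W (4778 of 9226). The share was lower in W in all 10 epithelial clusters, with exact binomial 95% intervals apart in all 10. It ran from 62.2% in cluster 9 to 96.0% in cluster 4 in UW, and from 37.8% to 68.2% in W. In cluster 0 it was 30.9% and 24.4%, and in cluster 10 it was 16.4% and 14%. This share does not depend on how the libraries are scaled and was chosen after its values were seen. In single epithelial cells thinned to 5000 UMIs, 17.1% held *Tgfbr1* alone in UW and 7.84% in W, 3.09% and 7.24% held *Tgfbr2* alone, and 1.03% and 1.07% held both. In cluster 0 10.9% and 9.84% held both.

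**Figure D3:**
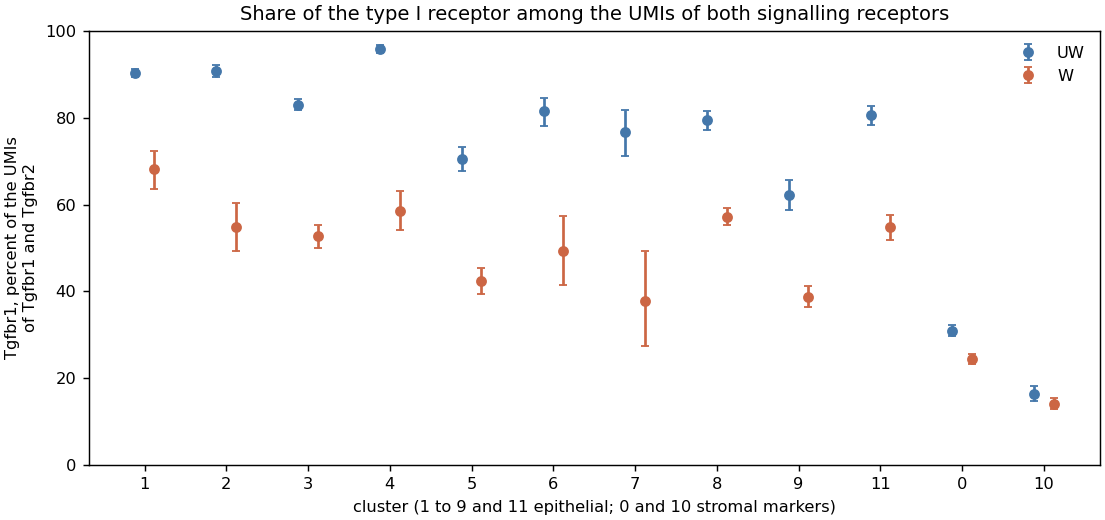
*Tgfbr1* as a percent of the UMIs of *Tgfbr1* and *Tgfbr2* in each cluster for UW and W, with exact binomial 95% intervals. The W points lie below the UW points in all 10 epithelial clusters, and clusters 0 and 10 lie at 30.9% or lower in both libraries.

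*Smad7*, the inhibitor that the pathway itself induces, lies on the plus strand at chr18:75367529-75395935. It was higher in W in 9 epithelial clusters, 5 of them past 2-fold. The basal-like cluster 3 had the largest ratio, 1.91 (1.78 to 2.04), with 20.1 CPM (18.6 to 21.7) in UW against 75.4 (71.9 to 79.1) in W. The suprabasal-like clusters 1 and 4 followed, at 9.03 and 12.7 CPM in UW and 28.4 and 38.3 in W. The limbal-like cluster 9 was highest of the epithelium in UW, at 67.9 (62.2 to 74.0), and lower in W, at 50.3 (47.5 to 53.2), a log2 ratio of −0.43 (−0.58 to −0.28). In UW the epithelial levels thus spanned from 9.03 to 67.9 CPM, and in W from 28.4 to 75.4. At 5000 UMIs per cell 11.1% of UW and 30.3% of W cells of cluster 3 held a UMI, against 27.4% and 67.2% without thinning. Cluster 0 differed little, at 129 CPM (125 to 133) in UW against 143 (139 to 147) in W, as did cluster 10, at 166 and 217. The highest level of all was in the T cell-like cluster 16 of W, at 332 CPM (298 to 369), where 47.3% of cells held a UMI at 2000 UMIs per cell.

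*Tgfbi* lies on the plus strand at chr13:56609523-56639562. The epithelium held 93.8% of its UMIs in UW and 87.4% in W, where it held 90.7% and 82.5% of all UMIs. The basal-like cluster 3 was at 625 CPM (616 to 633) in UW against 798 (786 to 809) in W, and the S phase-like cluster 11 at 602 and 690. The superficial-like cluster 7 was lowest, at 16.3 (15.1 to 17.7) and 33.9 (30.7 to 37.4), and was the only epithelial cluster past 2-fold, with a log2 ratio of 1.05 beside a median of 0.26 over all genes of that cluster. TMM scaling shifted the ratios of cluster 7 by −0.38, which takes *Tgfbi* below 2-fold. The median of *Tgfbi* over the 10 epithelial clusters was 0.27. In cluster 10 *Tgfbi* was at 195 CPM (183 to 207) and 312 (300 to 324), a log2 ratio of 0.68, and in cluster 0 at 154 and 201. In W the monocyte-like clusters 14 and 15 held 469 and 529 CPM, or 124% and 140% of the epithelial level, where epithelial markers were found at 37.3% and 10.9% of theirs. In cluster 16 the 98.2 CPM of *Tgfbi*, at 25.9% of the epithelial level, lay within the 17% to 31.2% range of the epithelial markers. *Fst* in clusters 13 to 16 was likewise within or below the range of these markers, at 8.2% to 28.4% of the epithelial level.

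**Figure D4:**
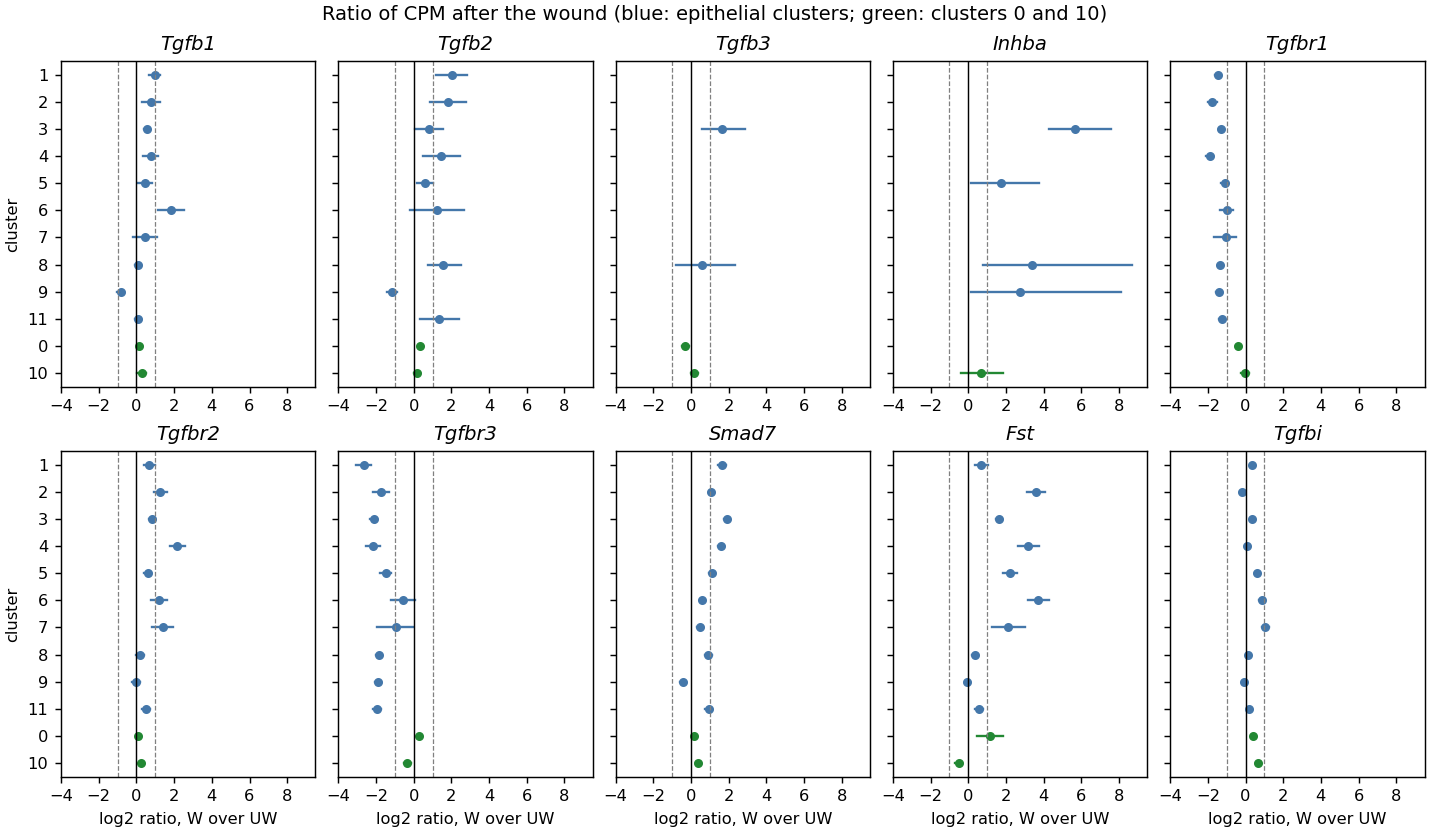
Log2 ratio of CPM in W over UW (x axis) by cluster (y axis) for each gene with at least 20 UMIs, with exact conditional 95% intervals; dashed lines mark 2-fold. All epithelial points of *Tgfbr1* and *Tgfbr3* lie below 0, those of *Smad7* and *Fst* lie above 0 in the 9 clusters other than cluster 9, and clusters 0 and 10 lie near 0 for most genes.

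The other genes of the pathway were read in lists set out by role, 75 genes of which 73 were in the table. In the summed epithelium 7 of 12 genes of latency and activation were at least 2-fold higher in W and none was lower, beside 21.8% and 8.77% of all genes, with a median log2 ratio of 1.27 against 0.22 for all genes. Most had little RNA, for 5 of the 7 were below 1 CPM in both libraries, and 6 were past the fold under TMM scaling. The only one at 10 CPM or more in a library was *Thbs1*, which encodes thrombospondin 1, an activator of latent TGF-β, at 8.76 CPM in UW and 27.5 in W and higher in 9 of 10 clusters. Of the other receptors of the family 2 of 8 were higher and 2 lower, and under TMM scaling 2 and 3. The 2 lower without that scaling were *Acvr1b*, the type I receptor of activin, at 19.3 and 9.09 CPM, and *Bmpr2*, the type II receptor of BMPs, at 56.7 and 21.4. Both were lower in all 10 clusters like *Tgfbr1*. Of 10062 genes with enough UMIs in each cluster, 17.9% were lower in all 10 and 17.8% were higher in all 10. Among the Smads 1 of 6 was higher, among the other secreted antagonists 1 of 5, and among the intracellular inhibitors 1 of 8, and none was lower. The last was *Pmepa1*, which encodes an inhibitor that holds back Smad2 and Smad3, at 11.1 CPM in UW and 70.7 in W and higher in all 10 clusters, with ratios from 0.72 to 3.19. Of the other ligands 4 of 9 were higher.

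Of 19 known target genes 10 were at least 2-fold higher in the W epithelium and 2 lower, beside 21.8% and 8.77% of all genes, with a median of 1.24. Of the 10, 2 reached 10 CPM, and under TMM scaling the counts were 10 and 3. *Snai2*, a transcription factor of epithelial migration, was at 5.76 CPM in UW and 19.8 in W and higher in all 10 clusters. Over 10062 genes, 17.8% were higher and 17.9% lower in all 10. *Id3*, a target better known for BMP signalling, was at 238 and 564 and higher in 7. The lower ones were *Cdkn1a*, which encodes the cell cycle inhibitor p21, at 697 and 264 CPM and lower in all 10 clusters, and *Fn1*, fibronectin, at 45.8 and 14, lower in 7 and higher in 3, of which cluster 7 turned lower under TMM scaling.

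In cluster 0 the lists are set beside an all-gene median of −0.15 and the 7.34% of genes higher and 9.67% lower. None of 11 genes of latency and activation was past 2-fold, and under TMM scaling 1 was higher. Of 8 receptors none was higher, 1 under TMM scaling, and 1 was lower, *Acvr2a*, an activin receptor, at 36.9 CPM in UW and 15.1 in W. Of 8 inhibitors 2 were higher, 3 under TMM scaling, among them *Smad6*, the inhibitory Smad of the BMP branch, at 5.52 and 12.5, and the co-repressor gene *Tgif1* at 21.4 and 53.7. Of 6 secreted antagonists 1 was higher and 1 lower, and of 10 other ligands 2 were higher. Of these ligands *Bmp2* was at 2.67 and 17. Of the 19 targets 4 were higher and 3 lower, and under TMM scaling 4 and 0. *Tnc*, which encodes the wound matrix protein tenascin C, was at 0.492 CPM, from 14 UMIs, and at 34.4, while the collagen gene *Col1a1* was lower, at 10059 and 4711 CPM, as was *Postn*, at 34.4 and 17.1. In cluster 10 1 of 10 genes of latency and activation, 2 of 8 inhibitors, 1 of 9 other ligands and 2 of 18 targets were higher, and 3 of 7 secreted antagonists were lower, 1 of them under TMM scaling. The share of all genes there was 4.97% higher and 6.63% lower, and the medians of the 7 lists ran from −0.36 to 0.48 beside −0.09 for all genes.

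**Figure D5:**
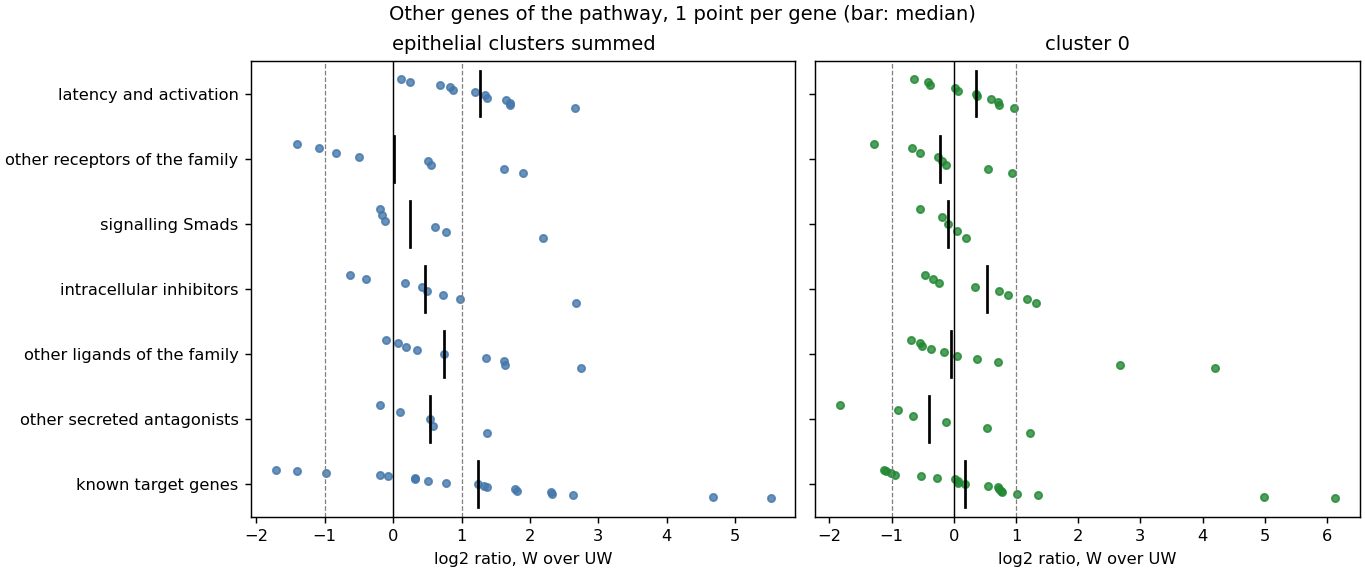
Log2 ratio of CPM in W over UW for the other pathway genes by list (1 point per gene, black bar the median) in the summed epithelium and in cluster 0; dashed lines mark 2-fold. The lists of latency and activation and of target genes have medians of 1.27 and 1.24 in the epithelium, and 0.36 and 0.18 in cluster 0.

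Genes whose levels followed those of a member most closely were sought over the 28 sums with at least 50 cells, among 14140 genes, by Pearson's r of log2(CPM + 1). The sums share 2 libraries and neighbouring clusters, so r is a description. *Tgfb2* was followed by *Fmo1* (0.98), *Ctgf* (0.97) and *Copz2* (0.97), and *Tgfb3* by *Cpxm1* (0.99), *Lmcd1* (0.99) and *Ccdc74a* (0.98). *Inhba* was followed by *Alox5ap*, *Nlrp3* and *C5ar1*, at 0.98, 0.98 and 0.97. *Tgfbr1* was followed by *Asph* (0.95), *Snx27* (0.93) and *Kctd13* (0.93), *Tgfbr2* by *Chpt1*, *Zfp142* and *Map3k12* (0.95 to 0.96), and *Tgfbr3* by *Cdon*, *Gas1* and *Gid4* (0.95 to 0.97). *Tgfb1* was nearest to *Ppp1r9b*, *Cfl1* and *Lrrc8d* (0.96 to 0.97), and *Ltv1* and *Mrps2* were close to *Tgfbi* (0.94 and 0.93). *Smad7* (*Mex3b*, *S100a13*, *Zfp212*) and *Fst* (*Cdh13*, *Cav1*, *Snai2*) had looser neighbours, with the highest r at 0.91 and 0.88. Among the members themselves *Tgfb2* was closest to *Tgfbr2* (0.86) and *Tgfb3* (0.85), and *Inhba* and *Tgfbr3* were farthest apart (−0.24).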

How the data were processed

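Dissociated cells of mouse corneas were captured for single-cell RNA-seq in 2 libraries, UW and W, each pooling 4 mice. The corneas had been kept in dispase and then digested with trypsin (epithelium) or collagenase (remaining tissue). The deposited counts are UMIs of a 3′ kit, tallied for every gene in every cell by the authors in Cell Ranger 3.1.0 with an mm10 reference, whereas the submitters' processing notes name mm9. The labels name the v3 kit and the paper the V2 kit. The authors filtered cells on genes and mitochondrial share, removed doublets with DoubletFinder and clustered the cells with Seurat, and their cluster numbers were used as deposited. The counts carry no normalization, and their deposited totals are 367166822 (UW) and 289586482 (W).

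Counts were summed per cluster and library where at least 50 cells were present, and expressed as CPM. Intervals are exact Poisson for levels, exact conditional (Clopper-Pearson) for ratios and exact Clopper-Pearson for shares, all at 95%, and cover counting error only. A sum of 0 allows up to 3 counts. For shares of cells with a UMI, cells were thinned to 5000 UMIs (2000 for clusters 13 to 17) and shallower cells were left out, in the epithelium 367 UW and 176 W cells. With 1 library per condition no test, p-value or standard error was made. The members, lists, markers and comparisons were chosen with earlier results of these data known. Named genes were the members, in each pathway list up to 4 genes with the largest ratios of at least 2-fold in the summed epithelium and in cluster 0 at 10 CPM or more in a library, the 3 most similar genes of each member (at least 200 UMIs in all), markers, and the 3 leading genes of each cluster. The 8 genes given for *Inhba* cells of cluster 3 lie outside this rule and were chosen after their values were seen. Clusters were named from fixed marker lists, except that cluster 7 was counted as epithelial by its leading genes, a judgement. Its leading genes had at least 50 CPM. Melanocyte, vascular, Schwann cell and pericyte markers were scored too and named no cluster.

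Computations used Python 3.11.15, numpy 2.4.6, pandas 2.3.3 and scipy 1.17.1, with edgeR 4.0.16 (TMM) and DESeq2 1.42.0 (median of ratios) for scaling factors only. On simulated sums with Poisson error alone, all 200 genes set to change 4-fold passed the 2-fold threshold in the epithelium, in cluster 0 and in cluster 10. The simulated sums held no spread between mice or libraries, so this checks the calculation only. Alternatives were both scalings, a filter of 1000 genes and 5% mitochondrial UMIs, equal weight per cell or per cluster, thinning, leaving mitochondrial and ribosomal protein genes out of the total, a fold of 1.5 and no minimum of UMIs. Leaving out shared barcodes or cluster 7 was added after seeing the data. Cluster 17 (29 W cells) entered no comparison. Promoters of *Tgfb3*, *Tgfbr3*, *Smad7* and *Fst* were not analysed here. Some genes that the naming rule gives are not reported here.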

Additional observations from a re-analysis of the deposited data

Results flagged for a closer look

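*Tgfb2* had a log2 ratio of W over UW of −1.15 in the limbal-like cluster 9, while 6 other epithelial clusters were at least 2-fold higher in W. Of those 6, cluster 6 is read as background and clusters 2 and 4 were little above free RNA. The difference between clusters was not tested, and cluster 9 had the highest epithelial level, at 26.5 CPM in UW and 12 in W. *Inhba* was at 22.5 CPM, from 12 UMIs, in cluster 17 (leading genes *Cxcl9*, *Gm5483*, *Acod1*), whose 29 cells, all from W, entered no comparison.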

How the results depend on the processing

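No paired analysis was possible because each condition has 1 library. Of 56 ratios past 2-fold, all 56 kept their sign under both scalings, the stricter filter, equal weight per cell, the smaller total and without the shared barcodes, and 55 did after thinning to 5000 UMIs. Of the 56, 53 stayed past 2-fold under TMM, 52 under median-of-ratios factors, 55 under the stricter filter, 53 with equal weight per cell, 54 with the smaller total, 56 without the shared barcodes and 48 after thinning. *Tgfb2* in cluster 6 turned from 1.26 to −0.32 there, on 4 UMIs in both sums together. The epithelial ratio of *Tgfb2* turned to −0.28 when each cluster weighed the same, and the count of members at least 2-fold higher was then 2 in place of 7. It was 5 under both scalings, with equal weight per cell and after thinning, and 8 at a fold of 1.5. The 2 members lower in the epithelium became 1 under the stricter filter (*Tgfbr1* at −0.99) and 0 without mitochondrial and ribosomal protein genes (*Tgfbr1* at −0.92, *Tgfbr3* at −0.996). The count of higher members in cluster 0 became 2 with no minimum of UMIs, and that in cluster 10 became 1 under the stricter filter and 2 at a fold of 1.5. The causes were not tested.

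Of 897 ratios over all alternatives, 731 stayed inside the counting interval of the reported value, 164 moved outside it without turning a ratio past 2-fold, and 2 turned such a ratio. In all 20 changed sign, 18 of them ratios under 2-fold. Of 560 shares of cells with a UMI 480 moved outside their interval with other thinning or none. Of 200 shares of a gene's UMIs, 72 did so with thinning and 21 with the stricter filter. Thinned to 2000 UMIs, clusters 13 to 16 held 87.9% of *Inhba* UMIs in W, and 64.4% under the stricter filter. Scaling by TMM or median-of-ratios factors shifted the ratios by −0.22 or −0.23 in the epithelium, 0.14 or 0.17 in cluster 0 and 0.11 or 0.12 in cluster 10. Higher genes then made up 57.9% or 56.9% of those past the fold in the epithelium against 71.3%, 54.2% or 56.0% in cluster 0 against 43.1%, and 53.0% or 53.6% in cluster 10 against 42.8%. Ratios of genes with few UMIs, such as *Tgfb3* and *Inhba* in the epithelium, were limited by depth.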
